A study of Mus musculus with 9 samples.

Results

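mmu-miR-203 and mmu-miR-205 are microRNAs (miRNAs) named for their known abundance in stratified epithelia such as the epidermis, and they were followed here in small extracellular vesicles (smEVs) of kidney cells. They are 2 of the 1164 entries of the count table and were taken by name, but the pair was selected with measured counts of these same libraries known, so their levels and differences are given as a description, with no test. smEVs were pelleted from the medium of immortalised mouse kidney medullary (KM) cells kept without serum for 24 h, and their small RNA was sequenced in 9 libraries, 3 from each of 3 genotypes. The genotypes were Bbs4 -/- and Bbs6 -/-, which each lack a protein that acts in trafficking at the primary cilium, and wild-type (WT). Each genotype was represented by a single cell line, so an effect of the genotype cannot be told apart from a difference between lines, and the 3 libraries of a genotype are vesicle preparations of that line. The question behind the design is how the loss of either protein alters the miRNA cargo of the vesicles.

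miRNAs are short RNAs that pair with messenger RNAs mainly through their seed, bases 2 to 8, and lower the translation and stability of their targets. miR-203 rises as keratinocytes leave the basal layer and differentiate, and it is known to repress Trp63, a transcription factor of basal cells. miR-205 is abundant in basal and progenitor cells of stratified and glandular epithelia, and together with the miR-200 family it represses Zeb1 and Zeb2, the transcription factors that silence epithelial genes during epithelial-mesenchymal transition. The kidney medulla is lined by simple epithelium and by the urothelium of the renal pelvis.

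The mature sequences are shown because the seed sets each miRNA's targets and because both arms of each hairpin could have supplied the reads. The table names no arm, and where a miRNA had several entries the authors kept the largest count, so the arm behind each value is not known. RefSeq gives the following arms on GRCm38.p6, 5′ to 3′, with the seed in capitals.

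mmu-miR-203-3p: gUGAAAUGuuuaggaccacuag

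mmu-miR-203-5p: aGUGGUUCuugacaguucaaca

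mmu-miR-205-5p: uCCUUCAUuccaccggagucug

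mmu-miR-205-3p: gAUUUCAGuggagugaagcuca

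The hairpins from which they are cut are given next, with both mature arms in capitals.

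Mir203 hairpin: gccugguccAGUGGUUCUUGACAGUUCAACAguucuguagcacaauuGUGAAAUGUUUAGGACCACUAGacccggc

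Mir205 hairpin: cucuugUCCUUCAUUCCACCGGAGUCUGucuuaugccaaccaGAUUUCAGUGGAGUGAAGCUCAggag

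No 2 of the 4 arms share a seed. Of the 1679 mouse mature miRNA names searched in RefSeq, which include these 4 arms, none of the others shares a seed with any of them. RefSeq mature sequences were found for 1026 of the 1164 entries (88.1%). Among the 1619 mature sequences of other entries, the nearest to miR-203-3p differed by 8 edits (single-base changes, insertions or deletions) and the nearest to miR-205-5p by 7. The nearest to miR-203-5p differed by 7 edits and the nearest to miR-205-3p by 8.

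Mir203 lies on the plus strand at chr12:112130880-112130955 (GRCm38), between protein-coding genes in the GENCODE annotation. The gene before it is Aspg, which ends 3.3 kb away, and Kif26a starts 15.3 kb after it. RefSeq also places a miRNA gene, Gm51289 (also called Mir203b), on the minus strand within the same bases, and reads from it were not separated here. The next miRNA gene, Mir3073a, is 21.6 kb away and had 0 counts in all 9 libraries. Mir205 lies on the minus strand at chr1:193507463-193507530, within an exon of the long noncoding RNA 4631405K08Rik, known in RefSeq as Mir205hg. Its nearest protein-coding gene, Camk1g, is 137.2 kb away, and the nearest miRNA genes are 1314.5 kb and 1508.8 kb away, so neither member lies in a miRNA cluster with a measured neighbour.

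Counts stand for molecules collapsed by unique molecular identifiers, and levels are given as counts-per-million values (CPM) scaled by edgeR's trimmed mean of M values (TMM). The WT libraries were the shallowest, with 64118 to 130905 counts in all, where Bbs4 -/- libraries had 176935 to 457163 and Bbs6 -/- libraries 192654 to 423784, so low miRNAs were measured least precisely in WT. A count of 0 allows up to 3 counts, which correspond to 6.99 CPM in the deepest library and 36.5 CPM in the shallowest. The 5 epithelial miRNAs (miR-200a, miR-200b, miR-200c, miR-141 and miR-429) summed to 9990 to 13303 CPM in WT, and every mutant library was higher, at 16968 to 18928 CPM in Bbs4 -/- and from 16551 to 21413 CPM in Bbs6 -/-. The part of this difference in the values below was not tested. The 5 mesenchymal miRNAs summed to 128 to 291 CPM in Bbs4 -/- and 107 to 181 CPM in WT. Every Bbs6 -/- library was lower, at 20.04 to 78.6 CPM. Of these miRNAs, miR-145a and miR-214 were at 0 throughout, so the sums came from miR-143, miR-199a and miR-199b. miR-199a and miR-199b had identical counts in every library, at most 4, so they do not add to the sums as separate miRNAs. The 4 kidney tubule miRNAs (miR-192, miR-194, miR-215 and miR-204) summed to between 72.9 and 393 CPM. In stratified epithelium both members are abundant, and in these vesicles miR-205 was near the limit of detection, so the name of the pair describes where the miRNAs are known from and not these cells.

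miR-203 was present in all 9 libraries at a low level. In the Bbs4 -/- libraries it had 8, 16 and 31 counts, or 50.6, 71.7 and 72.2 CPM. In the Bbs6 -/- libraries it had 5, 122 and 159 counts, or 27.4, 417 and 455 CPM. In the WT libraries it had 38, 21 and 42 counts, or 462, 187 and 272 CPM. The lowest WT library was thus above the highest Bbs4 -/- library, whereas Bbs6 -/- held both the lowest library of all and 2 libraries among the highest. The low library was Bbs6 -/- replicate 2 of the table, and replicates 3 and 4 were the high ones.

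**Figure D1:**
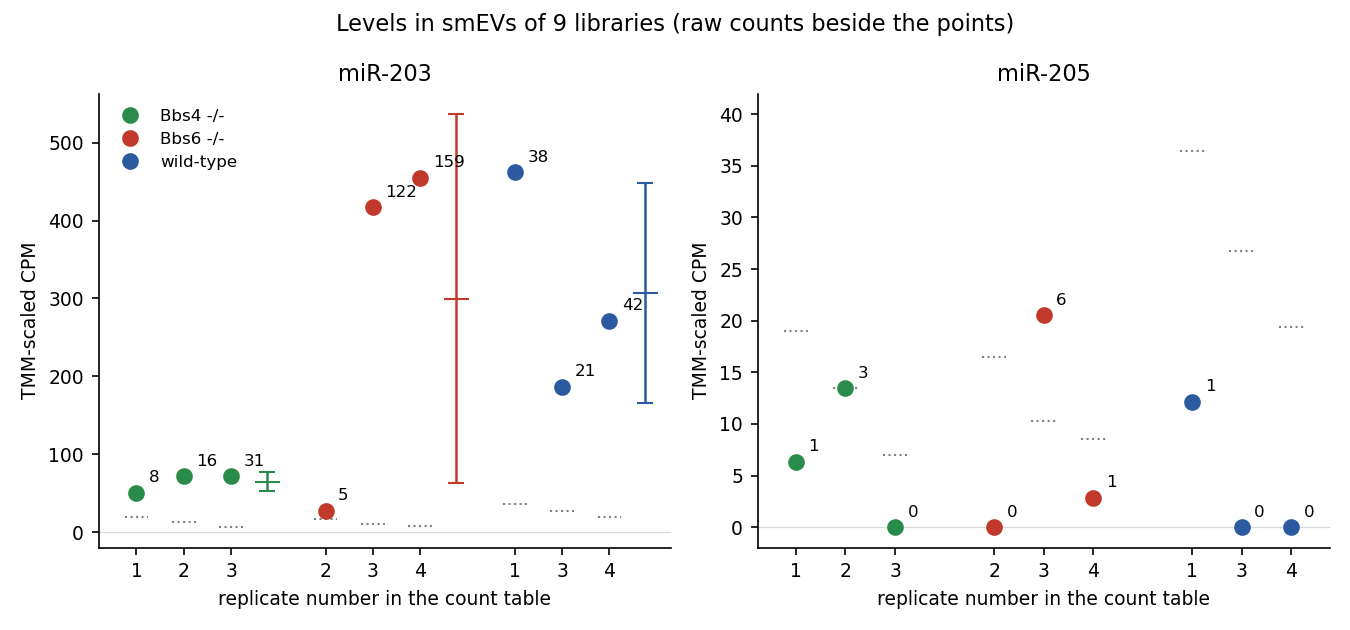
TMM-scaled CPM of miR-203 (left) and miR-205 (right) in each of the 9 libraries, with the raw count beside each point, coloured by genotype. The y axes differ. In the left panel the horizontal bar and whiskers give the mean ± SD (n = 3), and short dotted lines mark the CPM of 3 counts in each library. All 3 Bbs4 -/- points for miR-203 lie at or below 72.2 CPM, Bbs6 -/- replicate 2 lies at 27.4 CPM apart from the other Bbs6 -/- points, and a single miR-205 point, with 6 counts, lies above its dotted line.

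The order of the mean levels was WT, Bbs6 -/- and Bbs4 -/-. miR-203 averaged 307 ± 141 CPM (SD, n = 3) in WT, 299.9 ± 237 CPM (SD, n = 3) in Bbs6 -/- and 64.8 ± 12.3 CPM (SD, n = 3) in Bbs4 -/-. WT and Bbs6 -/- did not differ beyond their spread. The libraries of the neighbours Bbs6 -/- and Bbs4 -/- overlapped, since Bbs6 -/- replicate 2 lay below all 3 Bbs4 -/- libraries.

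Before TMM scaling, the counting intervals of the Bbs4 -/- and WT libraries did not meet. As a share of all counts, on the unscaled CPM scale, the highest Bbs4 -/- library had 75.1 CPM of miR-203, with an exact 95% Clopper-Pearson interval of 42.9 to 121.9. The lowest WT library had 198 unscaled CPM, with an interval of 122.4 to 302. The bounds lay close together, and dividing each by the TMM factor of its library (1.047 and 1.057) makes them cross. As miR-203 was chosen with these counts known, nothing is read from either order. Pooled over a genotype, the shares were 64.9 unscaled CPM (55 of 847259 counts) in Bbs4 -/-, 305 (286 of 938165) in Bbs6 -/- and 335 (101 of 301240) in WT. These intervals cover counting error only.

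The SD of miR-203 within a genotype was widest in Bbs6 -/-, at 237 CPM, where replicate 2 lay apart from the other libraries. The chi-square of miR-203 per degree of freedom over the 3 libraries was 0.727 in Bbs4 -/- (55 counts), 9.37 in WT (101 counts) and 30.9 in Bbs6 -/- (286 counts). This measure grows with the count, so the genotypes cannot be ranked by it. It was higher than that of miR-203 for 158 of 180 miRNAs in Bbs4 -/-, 54 of 175 in WT and 45 of 180 in Bbs6 -/-.

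miR-203 ranked 86, 114 and 104 by count in the WT libraries, which held 244, 279 and 247 detected miRNAs. In the Bbs4 -/- libraries it ranked 172 of 286, 153 of 303 and 145 of 309. In Bbs6 -/- it ranked 182 of 269 in replicate 2, 88 of 292 in replicate 3 and 86 of 298 in replicate 4. The ranks, which do not depend on the scaling, followed the order of the CPM, with WT replicate 1 and Bbs6 -/- replicate 4 tied. They do depend on how many miRNAs were detected. As a share of detected miRNAs, 34.8% ranked above miR-203 in WT replicate 1, against 28.5% and 29.8% in Bbs6 -/- replicates 4 and 3. The share was 40.5% in WT replicate 3 and 41.7% in WT replicate 4, so the order of the shares differed from that of the CPM. In a bulk preparation, fewer vesicles carrying a miRNA and fewer copies per vesicle cannot be told apart.

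In Bbs4 -/- smEVs the log2 fold change of miR-203 against WT was -2.30 ± 0.456 (SE, n = 3 per genotype). In edgeR's quasi-likelihood fit it met the thresholds of the study, which call a miRNA whose log2 fold change is 2 or more in either direction when its adjusted p is below 0.1, and was the 18th lowest of 308 miRNAs tested. Of those 308 miRNAs, 7 were called lower (2.27%) and 12 higher (3.90%). The 7 include miR-203 itself as well as miR-101a and miR-101c, which had identical counts. With total counts in place of TMM scaling, the calls were 11 lower and 12 higher, and without Bbs4 -/- replicate 3 they were 11 lower and 11 higher. Every Bbs4 -/- library was below every WT library for miR-203, as for 34 of 308 miRNAs (11.0%). Since miR-203 was taken up with these counts known, nothing is read from its call. Without WT replicate 1, the WT library with the highest level, the log2 fold change was -1.79 ± 0.544 and was not called.

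In Bbs6 -/- smEVs the log2 fold change of miR-203 against the same WT libraries was 0.02 ± 0.809 (SE, n = 3 per genotype). The Bbs6 -/- and WT libraries overlapped, and miR-203 was not called, where 4 of 298 miRNAs were called lower (1.34%) and 8 higher (2.68%). With total counts the calls were 9 lower and 8 higher. Lower calls were 8 without Bbs6 -/- replicate 2, 7 without replicate 4, and 2 without Bbs6 -/- replicate 3, WT replicate 1 or WT replicate 4. Without Bbs6 -/- replicate 2 the log2 fold change was 0.57 ± 0.419, and without replicate 4 it was -0.41, so its direction rested on which library was left out. The WT libraries are shared by both comparisons, so the values are set side by side and not correlated.

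Between the mutants, which were compared directly in a fit of all 9 libraries, the log2 fold change of miR-203 in Bbs4 -/- over Bbs6 -/- was -2.20 ± 0.711 (SE, n = 3 per genotype). It met the thresholds, as did 8 of 309 miRNAs called lower (2.59%), and 4 were called higher (1.29%), with 8 higher without Bbs6 -/- replicate 2 and 1 without Bbs4 -/- replicate 1. miR-143, a mesenchymal miRNA, was called higher in this contrast (log2 fold change 2.19 ± 0.579, edgeR adjusted p = 0.0484), and its part in the miR-203 value was not tested. The libraries overlapped through Bbs6 -/- replicate 2. Without that library the log2 fold change was -2.80 ± 0.439 and met the thresholds. It missed them when any other of the 9 libraries was left out. The library left out for that pass was the one that lay against the difference. As miR-203 was also chosen with these counts known, nothing is read from its calls in this contrast.

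**Figure D2:**
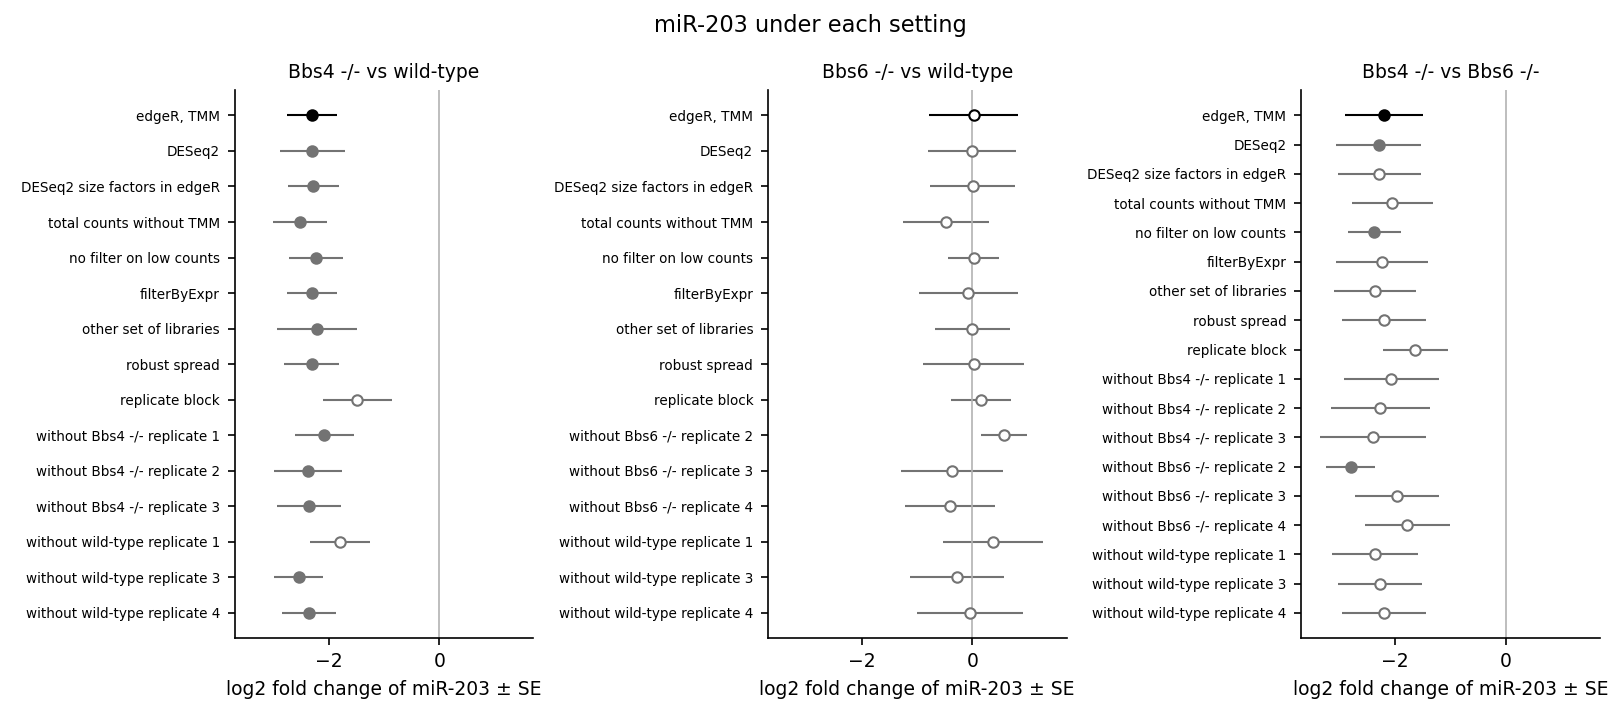
log2 fold change of miR-203 (x axis, point ± SE) in the 3 comparisons under each processing setting and with each library left out; filled points met the adjusted p and fold thresholds and open points did not. Every estimate of Bbs4 -/- against WT lies between -2.54 and -1.48, those of Bbs6 -/- against WT lie on both sides of 0, and those of Bbs4 -/- against Bbs6 -/- lie between -2.80 and -1.64.

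Bbs6 -/- replicate 2 stood apart for more than miR-203. Over 180 miRNAs, its log2 CPM minus the mean of replicates 3 and 4 had an SD of 1.22, against 0.573 to 0.897 for the 8 other libraries compared with the rest of their genotype. It was below -2 for 17 miRNAs, against 0 to 8 for the other libraries. miR-203 was the 5th lowest, at -3.61. miR-200c, at -4.45, and miR-141, at -3.74, were lower still, as were miR-672 at -4.61 and miR-5110 at -3.61. miR-125b, a miRNA of epidermal stem cells, was at -2.71. miR-200c and miR-141 are transcribed together, so the lowest miRNAs of this library include both of that pair as well as miR-203, which has a locus of its own. The part of the library itself in the miR-203 level was not tested.

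**Figure D3:**
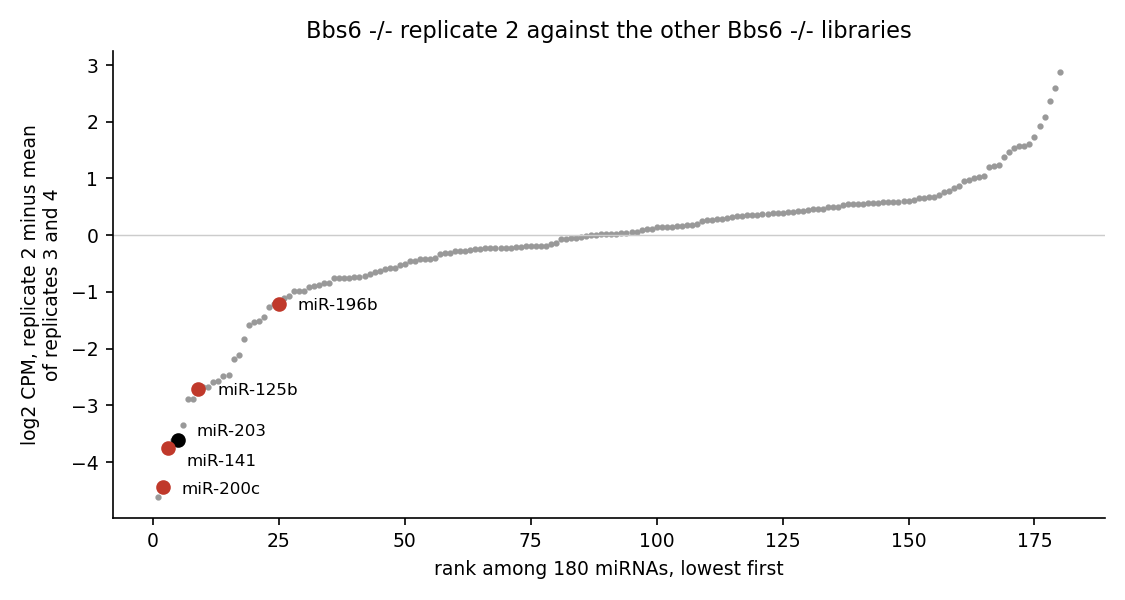
Difference in log2 CPM between Bbs6 -/- replicate 2 and the mean of replicates 3 and 4 (y axis) for 180 miRNAs ordered from the lowest (x axis, rank). miR-203 (black) is the 5th lowest, at -3.61, near miR-200c, miR-141 and miR-125b (red), and most miRNAs lie near 0.

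miR-205 was at or under 3 counts in 8 of the 9 libraries. The Bbs4 -/- libraries had 1, 3 and 0 counts, the Bbs6 -/- libraries 0, 6 and 1, and the WT libraries 1, 0 and 0. In CPM these were 6.32, 13.4 and 0 in Bbs4 -/-, 0, 20.5 and 2.86 in Bbs6 -/-, and 12.2, 0 and 0 in WT. No genotype was set apart, and the single library above 3 counts was Bbs6 -/- replicate 3.

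Over all libraries miR-205 had 12 of 2086664 counts, a share of 5.75 unscaled CPM with an exact 95% Clopper-Pearson interval of 2.97 to 10.05. miR-203 had 442 counts, or 212 unscaled CPM. By genotype, the pooled share of miR-205 in unscaled CPM was lowest in WT, at 3.32 with an interval of 0.084 to 18.5. It was 4.72 in Bbs4 -/- (interval 1.29 to 12.1), whereas Bbs6 -/- had 7.46 (interval 3.00 to 15.4). The intervals overlapped throughout, and a difference between genotypes was not detectable at this depth. miR-205 had 5 counts in Bbs4 -/- and WT together, under the minimum of 6 for that fit. It was tested in the other comparisons, with 8 and 12 counts, and was not called, and no fold is given at these counts. Of the 2 members, 1 passed the minimum in the comparison of Bbs4 -/- with WT and both passed it in the other comparisons.

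Other miRNAs known from epithelia and epidermis were followed beside the pair. Their list was fixed with earlier results of these data known, so its shares are a description. Of 18 such miRNAs, 17 could be tested in Bbs4 -/- against WT and 16 in each other comparison. miR-200c and miR-141 were called higher in both mutants, 2 of 17 and 2 of 16 where 3.90% and 2.68% of all miRNAs tested were called higher, and none was called lower (2.27% and 1.34% of all). These 2 miRNAs are transcribed together, so their calls are not independent. The call of miR-141 in Bbs6 -/- was lost without Bbs6 -/- replicate 3, WT replicate 1 or WT replicate 4. The median log2 fold change of those tested was 0.19 in Bbs4 -/- and 0.48 in Bbs6 -/-, against -0.02 and -0.01 over all miRNAs tested. At an unadjusted p under 0.05 edgeR gave 4 of the 17 and 9 of the 16, where 26.0% and 22.1% of all were under that p. The 4 include 2 miRNAs of the miR-200 family and the 9 include all 5. Members of that family share loci, so these counts are not of independent miRNAs and nothing is read from them. Between the mutants edgeR and DESeq2 called 0 of the 16, where edgeR called 1.29% of all miRNAs higher and 2.59% lower, so a count of 0 sets these miRNAs apart from no other. In edgeR 1 of the 16 had an unadjusted p under 0.05, as did 16.2% of all miRNAs.

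The 5 miRNAs of the miR-200 family, which maintain epithelial identity and share targets with miR-205, split into those present in WT and those nearly absent. miR-200c had 1, 2 and 1 counts in the WT libraries, 513, 753 and 1420 in Bbs4 -/-, and 32, 1069 and 1542 in Bbs6 -/-. No mutant library was as low as WT, although Bbs6 -/- replicate 2 had only 176 CPM where the other Bbs6 -/- libraries had 3654 and 4414. The ratio of pooled shares to WT was 239 in Bbs4 -/- (exact 95% counting interval 93.1 to 877; edgeR adjusted p = 1.14e-09). In Bbs6 -/- the ratio was 212 (82.8 to 779; edgeR adjusted p = 0.00486).

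miR-141 had 0 counts in every WT library, 10, 34 and 44 in Bbs4 -/-, and 1, 57 and 62 in Bbs6 -/-. Against 3 counts in each WT library, its mean level was at least 3.85-fold higher in Bbs4 -/- (edgeR adjusted p = 0.00299) and at least 4.58-fold higher in Bbs6 -/- (edgeR adjusted p = 0.0608). The Bbs6 -/- bound rested on replicates 3 and 4. Replicate 2, at 5.49 CPM, lay under the CPM of 3 counts in every WT library (19.4 to 36.5) and could not be told from WT. miR-200a, miR-200b and miR-429, which come from another locus, were present in WT at 1898 ± 571, 8388 ± 978 and 1455 ± 182 CPM (SD, n = 3) and were not called in any comparison. In Bbs6 -/- against WT their log2 fold changes were 0.74 ± 0.257, 0.47 ± 0.163 and 0.49 ± 0.216 (SE, n = 3 per genotype). At an unadjusted p under 0.05 edgeR gave all 5 of the family there and 2 of 5 in Bbs4 -/- against WT. Of all miRNAs tested, 22.1% and 26.0% were under that p. Between the mutants edgeR gave 0 of the 5, against 16.2% of all. miR-203 was lower in Bbs4 -/- where miR-200c and miR-141 were higher, and in Bbs6 -/- replicates 3 and 4 it was as high as in WT where they were also higher.

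Of the 10 keratinocyte and epidermal miRNAs, 9 were tested in Bbs4 -/- against WT and 8 in each other comparison, and edgeR and DESeq2 called none. At an unadjusted p under 0.05 edgeR gave 2, 4 and 1 of them in Bbs4 -/- against WT, Bbs6 -/- against WT and Bbs4 -/- against Bbs6 -/-, where 26.0%, 22.1% and 16.2% of all miRNAs tested were under that p. miR-21a, the most abundant of them and a miRNA of proliferating and wounded skin, had 99525 ± 12836 CPM in WT, 192542 ± 1325 in Bbs4 -/- and 222115 ± 17629 in Bbs6 -/- (SD, n = 3). Every mutant library was above every WT library, and its log2 fold changes of 0.84 ± 0.195 (edgeR adjusted p = 0.00964) and 1.18 ± 0.142 (edgeR adjusted p = 0.00201) stayed under the fold threshold. miR-31, which promotes keratinocyte growth, was between 9298 and 17431 CPM in all libraries and did not pass the test. miR-184 had 7 counts in Bbs4 -/- and WT together and miR-214 had 0 counts in every library.

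The miR-183 cluster (miR-183, miR-96 and miR-182), which is known from sensory epithelium, was abundant. miR-182 averaged 58505 to 69035 CPM and miR-183 32180 to 38355 CPM over the genotypes. miR-96 was lower, from 523 CPM in WT replicate 1 to 1640 CPM in Bbs6 -/- replicate 4. edgeR and DESeq2 called 0 of the 3 miRNAs in each comparison, and in edgeR 0 had an unadjusted p under 0.05. With 3 miRNAs and the shares of all miRNAs given above, nothing is read from these counts. miR-182 and miR-183 were well above miR-203 in every library, whereas in WT replicate 1 miR-96 had 43 counts and miR-203 had 38, although CPM of different miRNAs also carries differences in how well each is ligated and amplified.

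**Figure D4:**
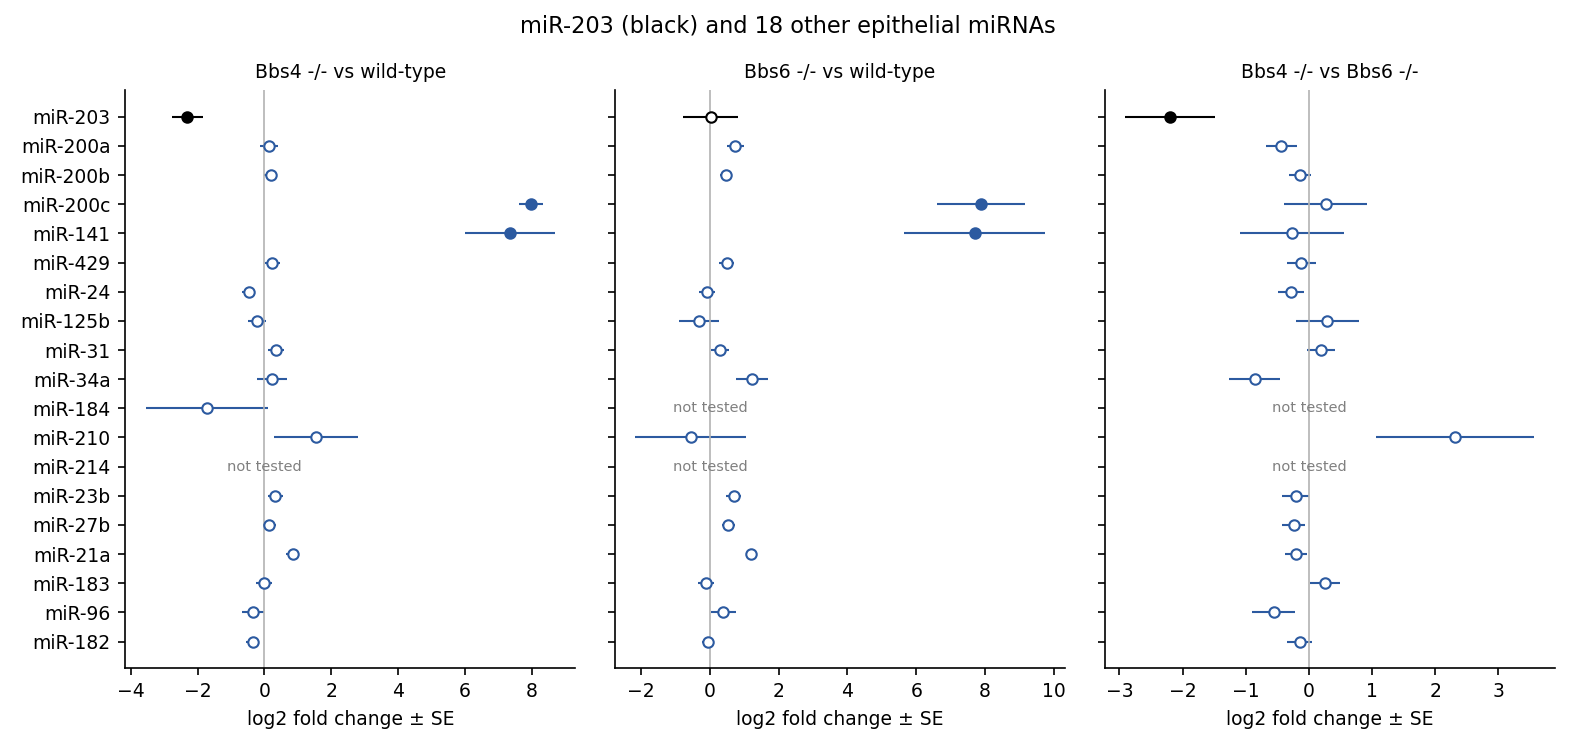
log2 fold change ± SE of miR-203 (black) and of the epithelial and epidermal miRNAs that could be tested (blue), in each of the 3 comparisons (panels, with x axes of their own); filled points met the thresholds. miR-200c and miR-141 stand to the right in both comparisons with WT, where their WT counts are 0 to 2 and the fitted values depend on the prior count. miR-203 stands to the left in Bbs4 -/- against WT and against Bbs6 -/-.

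Likeness to miR-203 was measured as Pearson's r of log2 CPM over the 9 libraries, among 179 miRNAs with at least 90 counts. The libraries differed in depth and genotype, and r also carries those differences. The 5 most alike were miR-196b (r = 0.84), miR-9 (0.79), miR-101a and miR-101c (0.75 each, with identical counts) and miR-574 (0.74), where the median over all 179 was -0.08. These values are descriptions, and as the miRNAs were chosen by them no test is given.

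miR-9 had 2, 20 and 41 counts in Bbs4 -/-, 10, 136 and 163 in Bbs6 -/-, and 13, 16 and 14 in WT. Like miR-203 it was low in Bbs6 -/- replicate 2, at 54.9 CPM, and high in replicates 3 and 4, at 465 and 467 CPM. Its WT libraries, at 90.5 to 158 CPM, were lower than those of miR-203. miR-101a had 101, 148 and 86.2 CPM in Bbs4 -/-, 22.0, 140 and 258 in Bbs6 -/-, and 425, 623 and 478 in WT, so its 3 Bbs6 -/- libraries all lay below WT, unlike those of miR-203. miR-196b varied least, from 1756 CPM in Bbs6 -/- replicate 2 to 4577 in replicate 4.

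The likeness rested in part on Bbs6 -/- replicate 2. Without it, r was 0.77 for miR-196b, 0.81 for miR-9, 0.60 for miR-101a and 0.59 for miR-574, and only miR-9 stayed among the 5 most alike, with miR-335, miR-181c, miR-676 and miR-181d. Among the epithelial and epidermal miRNAs the highest r was 0.53, for miR-125b, and it was 0.01 without that library. For miR-200c r was -0.23 and for miR-429 it was -0.60. The miRNA least like miR-203 was miR-99b, at -0.89.

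**Figure D5:**
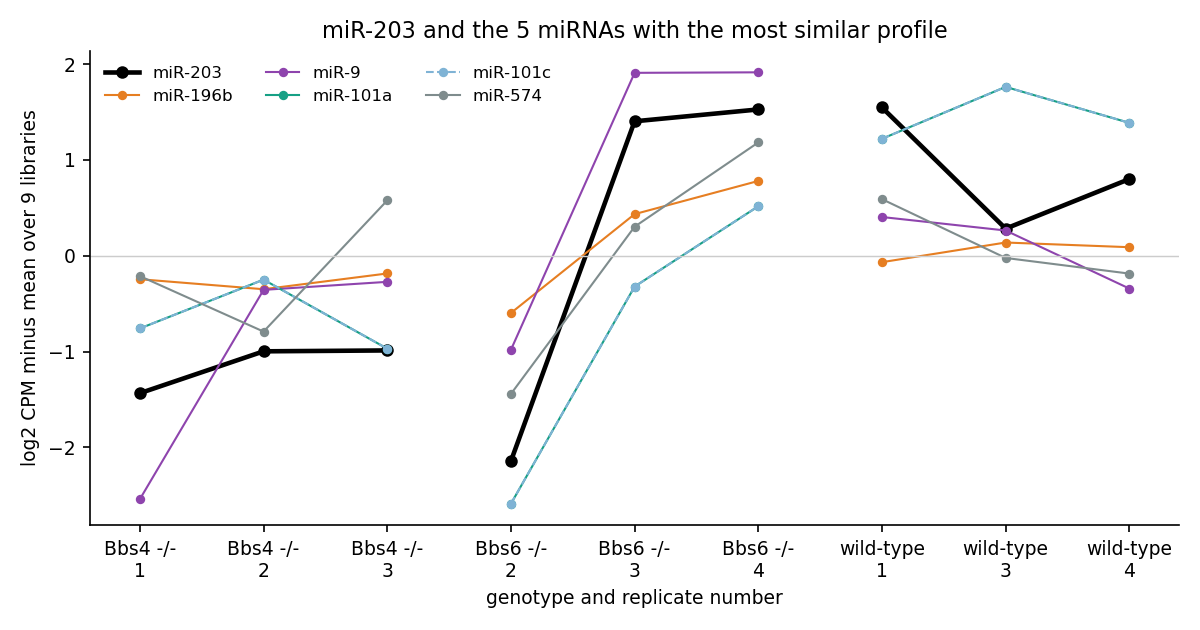
log2 CPM minus the mean over the 9 libraries (y axis) in each library (x axis, genotype and replicate number) for miR-203 (black) and the 5 miRNAs most like it. Lines join libraries of a genotype and mark no order. miR-203 and miR-9 both fall in Bbs6 -/- replicate 2 and are high in replicates 3 and 4, and miR-101a is highest in WT.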

How the data were processed

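The deposited values are counts per miRNA, which the authors made from small RNA reads of smEV pellets: adapters were trimmed with cutadapt 1.9, low-quality reads were dropped, reads identical in sequence and molecular identifier were collapsed, short reads were removed, and miRDeep2 counted reads, the largest count being kept for a miRNA with several entries. The genome build of the counting step is not given in the sources used here. An identifier-collapsed count limits PCR duplication but not ligation bias.

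Libraries were grouped by labelled genotype. For Bbs6 -/- and WT the table numbers its replicates otherwise than the labels do, so those columns were used by genotype only, under the table's numbers. Replicate pairs of a genotype differed by 9.02 to 68.5 times the chi-square of counting error, so no library was a copy of another. The members and all lists were chosen with earlier results of these data known. Named miRNAs are the members, those lists, the 5 most like miR-203, and miRNAs that share a seed with a member. miR-672, miR-5110, miR-99b, miR-122 and the miRNAs most alike without Bbs6 -/- replicate 2 were named after their values were seen.

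R 4.3.3 with edgeR 4.0.16 (TMM, quasi-likelihood test, Benjamini-Hochberg over all miRNAs tested) was fitted on the 6 libraries of each comparison with WT (total of at least 6 counts) and on all 9 for the contrast of the mutants (at least 9). SE is the log2 fold change over the root of F. Likeness used a prior count of 2. miRNAs were called, as in the study, where the log2 fold change was 2 or more either way with an adjusted p below 0.1. P-values measure the spread between preparations of 1 line per genotype. Alternatives were DESeq2 1.42.0, its size factors in edgeR, total counts, no filter, filterByExpr, another set of libraries in the fit, robust spread and leaving out each library. A block on the table's replicate numbers was added after seeing the data. The fit was tested on simulated data. Sequences are from RefSeq and loci from GENCODE.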

Additional observations from a re-analysis of the deposited data

Results flagged for a closer look

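miR-203 was singled out because its change against WT differed between the mutants. The direct contrast, which is that difference, gave a log2 fold change of -2.20 ± 0.711 (SE, n = 3 per genotype) in Bbs4 -/- over Bbs6 -/-, where the changes against the shared WT libraries were -2.30 and 0.02. The Bbs4 -/- libraries had 50.6, 71.7 and 72.2 CPM and the Bbs6 -/- libraries 27.4, 417 and 455 CPM, so 2 of 3 Bbs6 -/- libraries lay above every Bbs4 -/- library. As miR-203 was chosen with these counts known, the difference is a description.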

How the results depend on the processing

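No pairing is given by the labels, since the table and the labels number the Bbs6 -/- and WT replicates differently. A replicate block on the table's own numbers, of unknown meaning, was fitted on all 9 libraries after seeing the data. With it miR-203 had a log2 fold change of -1.48 ± 0.617 in Bbs4 -/- against WT, 0.16 ± 0.543 in Bbs6 -/- against WT and -1.64 ± 0.590 between the mutants, and was called in none. Lower calls over all miRNAs in Bbs6 -/- against WT went from 4 to 10 and all calls from 12 to 20. Between the mutants higher calls went from 4 to 7. Deviations from the genotype means correlated at 0.44 and 0.49 in the 2 pairs of Bbs4 -/- and WT libraries with the same number. The other 4 same-number pairs lay between -0.08 and 0.04, and the 21 pairs with different numbers between -0.52 and 0.23. Deviations cancel within a genotype, so these correlations are not independent, and no pairing is read from them. miR-203 in Bbs4 -/- against WT stayed between -2.51 and -2.21 (log2) and past the thresholds in the 7 other settings without the block, and between -2.54 and -1.79 when a library was left out, where it was lost only without WT replicate 1. In Bbs6 -/- against WT it ran from -0.48 to 0.02 over those settings and from -0.41 to 0.57 over left-out libraries and was never called. Between the mutants it ran from -2.37 to -2.05, past the thresholds in 2 of 7 settings (DESeq2 and no filter). Over left-out libraries it ran from -2.80 to -1.78, past them in 1 of 9. Since miR-203 was taken up with these counts known, these passes describe the fits and nothing is read from them. Total counts in place of TMM moved the median of all miRNAs by -0.16, -0.40 and 0.10 in the 3 comparisons, and the value of -0.48 is relative to that shift of -0.40. With filterByExpr the epithelial and epidermal miRNAs called fell from 2 to 1 in each comparison with WT, since miR-141 was not tested. In Bbs6 -/- against WT they ranged from 1 to 2 over left-out libraries, miR-141 being lost without Bbs6 -/- replicate 3, WT replicate 1 or WT replicate 4. The cause was not tested. Of the 5 miRNAs most like miR-203, 1 to 5 stayed when a library was left out, with 1 without Bbs6 -/- replicate 2. The mean level of miR-205 was 6.14 CPM, 6.26 with total counts and 4.35 to 6.91 over left-out libraries. Over all miRNAs in Bbs4 -/- against WT, lower calls rose from 7 to 11 with total counts, no filter or robust spread. In Bbs6 -/- against WT they rose from 4 to 9 with total counts. WT, at 64118 to 130905 counts, sets the limit for low miRNAs.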

Other observations

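miR-122, the main miRNA of liver, was called lower in Bbs4 -/- than in WT (edgeR adjusted p = 0.0586), at few counts. It had 7, 3 and 9 counts in the WT libraries, 0, 2 and 0 in Bbs4 -/-, and 6, 22 and 0 in Bbs6 -/-. The 5 blood miRNAs (miR-451a, miR-144, miR-223, miR-142a and miR-150) summed to 62.3 to 85.1 CPM in WT, 2.33 to 63.2 CPM in Bbs4 -/- and 0 to 43.9 CPM in Bbs6 -/-. Of these 5, 3 were tested in Bbs4 -/- against WT and 2 in each other comparison, and edgeR called none. With so few tested, and 1.29% to 3.90% of all miRNAs called in either direction, nothing is read from this. miR-122 was lower in every Bbs4 -/- library than in every WT library, as was miR-203. The same held for 34 of 308 miRNAs (11.0%), and the miR-122 counts lay near the limit of detection, so nothing is read from the shared order. Neither the part of miR-122 nor that of the blood miRNAs in the miR-203 level was tested.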
